A study of Mus musculus with 12 samples.

Results

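C-type lectin receptors of myeloid cells were examined as 10 genes: Clec4n, Clec4d, Clec4e, Clec7a, Clec4b1, Clec4a2, Clec4a3, Clec12a, Clec10a and Mgl2. They were taken by symbol from bulk RNA-seq tables of tumor-associated macrophages (TAMs), each listing 55401 genes, and all 10 were found on a single row of each table and had enough counts to be tested. TAMs had been sorted from subcutaneous B16-F10 tumors, a mouse melanoma line, as CD45+ CD11b+ F4/80+ cells. The study's methods describe TAMs as negative for Ly6C and Ly6G, while its supplement gives gates positive for Ly6C and in 1 case for Ly6G, so these parts of the gate are uncertain. The first table held WT TAMs (genotype AMPKfl/fl, n = 3) and AMPK-KO TAMs (AMPKfl/flLyz2cre/cre, n = 3), both of which carry the floxed allele and which the study's methods place at day 15. The second held early-stage TAMs (8 days, genotype WT, n = 3) and late-stage TAMs (15 days, genotype WT, n = 3). Lyz2 drives the Cre in myeloid cells as a whole, so that neutrophils, monocytes and macrophages outside the tumor are also within its reach. The genotype fields of AMPK-KO samples 2 and 3 read Lyz3 and Lyz4, while all 3 titles read Lyz2. No treatment was given, and the methods name C57BL/6 mice aged 5 weeks, and female ones as tumor hosts. The labels do not say whether replicates came from separate mice, so p-values measure only the spread between these samples, which may be technical.

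C-type lectin receptors are surface proteins that read glycans and glycolipids on microbes, dying cells and tumor cells. Activating members signal through an ITAM-type tyrosine motif, carried either by the receptor itself (Clec7a, known as Dectin-1) or by the adaptor FcRγ, the product of Fcer1g. The kinase Syk then engages Card9, Bcl10 and Malt1, which leads to NF-κB and to cytokine transcription. Inhibitory members carry an ITIM, which recruits phosphatases such as SHP-1 (Ptpn6), while endocytic members take up glycosylated ligands for degradation or presentation. In tumors these receptors are known mainly from macrophages, monocytes and dendritic cells, and several of them are used as markers of macrophage states.

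The libraries held 71019494 to 84470374 counts each, and the members had between 1056 counts (Clec4b1 in WT 1) and 25067 counts (Clec12a in Late 1) per sample. Prkaa1, which encodes the α1 subunit of AMPK, was at 65.0 ± 3.34 CPM in WT TAMs and 42.9 ± 3.53 CPM in AMPK-KO TAMs (SD, n = 3 each, log2 fold change −0.60, SE 0.07, adjusted p = 2.26e-04, edgeR), where CPM are counts relative to the TMM-scaled library total. Lyz2, the gene that the Cre knock-in interrupts, had 671 to 975 counts in WT samples and 676 to 1088 in AMPK-KO samples, against 204851 to 249165 in early-stage and 88212 to 93224 in late-stage samples, so its level did not separate the libraries labelled WT from those labelled AMPK-KO. Lyz2 in the libraries labelled WT thus lay far below both stage groups, whose genotype is also given as WT. Whether the WT mice also carried the Cre knock-in was not tested, and the comparison is given by label. The 4 Y-linked genes listed summed to 41.5 to 48.8 CPM in early-stage and to 0 to 0.05 CPM in late-stage samples, so sex and stage cannot be told apart, whereas WT (128 to 139 CPM) and AMPK-KO samples (141 to 153 CPM) all carried them, against the stated sex. All 10 macrophage markers, including Adgre1, Csf1r and C1qa, were tested, and they summed to 9910 to 14700 CPM per sample, which fits the label TAM. In bulk samples fewer cells of a type and less RNA per cell cannot be told apart.

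The members lie in 3 places of GRCm38 (GENCODE M21 annotation). Clec4a3 (chr6:122952515-122969875), Clec4b1 (chr6:123049962-123071555), Clec4a2 (chr6:123106428-123143999), Clec4n (chr6:123229843-123247021), Clec4d (chr6:123262111-123275265) and Clec4e (chr6:123281789-123289870) occupy 337.4 kb of chromosome 6, all on the plus strand except Clec4e. The annotation lists 8 protein-coding genes in that stretch, the other two being Clec4a4 and Clec4b2. Clec12a (chr6:129342691-129365303, plus strand) and Clec7a (chr6:129461591-129472779, minus strand) stand together further along, within 130.1 kb. The annotation gives Clec7a the type polymorphic pseudogene, unlike the other members, which are typed as protein-coding. Mgl2 (chr11:70130329-70137550) and Clec10a (chr11:70156197-70170834), both on the plus strand, are separated by 18.6 kb on chromosome 11. Mgl2 and Clec10a are close paralogs, as are Clec4a2, Clec4a3 and Clec4b1. How multiply mapped reads were counted is not given in the sources used here, so the split of reads within these sets is uncertain.

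Per length of annotated exon, Clec4a3 was the highest member in all 4 groups and Clec4e the lowest. This order depends on the merged length of all annotated exons, from 784 bases for Clec4b1 to 5528 for Clec12a. By CPM alone Clec12a was the highest member in all 4 groups. In WT TAMs Clec4a3 (130 ± 2.94 CPM per kb, SD, n = 3), Clec4n (117 ± 1.81) and Clec4d (112 ± 12.5) stood above the other members, and the ranges of Clec4n and Clec4d overlapped. Clec10a (63.1 ± 4.93), Clec4a2 (56.9 ± 1.18), Clec12a (37.1 ± 2.66), Mgl2 (29.4 ± 2.13), Clec7a (28.4 ± 1.48), Clec4b1 (22.5 ± 3.99) and Clec4e (17.6 ± 0.344) followed, with overlapping ranges for Clec10a with Clec4a2 and for Mgl2 with Clec7a. In AMPK-KO TAMs Clec7a reached 71.8 ± 1.42 CPM per kb, overlapping Clec4d (74.5 ± 4.79) and Clec4a2 (72.8 ± 0.706), and Mgl2 (55.9 ± 1.45) lay above Clec10a (47.7 ± 2.28). In early-stage TAMs Clec4d (113 ± 10.6) and Clec4n (91.1 ± 7.14) followed Clec4a3 (148 ± 13.0), each apart from the next. In late-stage TAMs Clec4a2 (61.5 ± 2.99) and Clec12a (53.8 ± 0.758) came next after Clec4a3 (125 ± 2.14), ahead of Clec4d (51.4 ± 1.20), while Clec4n (39.4 ± 1.28) was within the range of Clec4b1 (41.0 ± 4.49). Summed over the members, the level per length was 582 to 640 in WT, 687 to 717 in AMPK-KO, 587 to 601 in early-stage and 446 to 450 in late-stage samples. The tables were scaled separately, so levels set side by side across them are approximate.

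**Figure D1:**
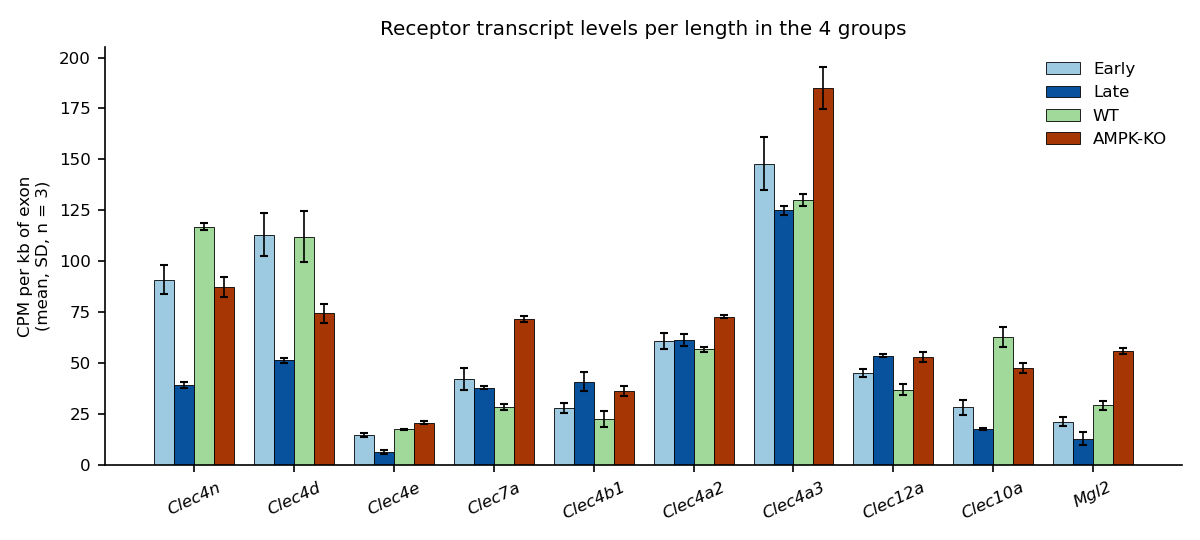
Transcript level of each receptor per length (CPM per kb of exon, vertical axis) in early-stage, late-stage, WT and AMPK-KO TAMs; bars are means and whiskers the SD of 3 samples. Clec4a3 was the highest member in each group, and Clec7a stood at 28.4 in WT and 71.8 in AMPK-KO TAMs.

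For the genotype comparison, AMPK-KO TAMs were set against WT TAMs by label. All 10 members passed the test (adjusted p under 0.05), 7 of them higher and 3 lower, where 21.1% of the 17532 genes tested passed it, 11.3% higher and 9.78% lower. For all 10, the 3 AMPK-KO values lay outside the range of the 3 WT values, which held for 37.2% of genes tested (18.8% higher and 18.4% lower). The median log2 fold change was 0.43 over the members (from −0.59 to 1.34) and −0.0037 over all genes tested. Only Clec7a also passed the fold threshold of an absolute log2 fold change above 1, which 3.34% of genes passed (2.05% higher and 1.28% lower). The members were chosen with results of these data in view, so these counts describe them and are not independent evidence.

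Clec7a, the β-glucan receptor with its own ITAM-like motif, changed most among the members. It was at 76.3, 70.6 and 78.1 CPM in WT TAMs and at 191, 192 and 185 CPM in AMPK-KO TAMs. Every AMPK-KO sample thus stood above 2 times the highest WT sample, and the samples within each group were close to each other. The means were 75.0 ± 3.90 and 189 ± 3.77 CPM (SD, n = 3, log2 fold change 1.34, SE 0.05, adjusted p = 2.21e-07, edgeR's quasi-likelihood test with Benjamini-Hochberg adjustment). The window from 250 bases before to 50 after its start site is shown because Clec7a moved most, and capitals mark the letters GAGGAA on either strand, the core bound by the myeloid factor PU.1.
Clec7a promoter, chr6:129472730-129473029, minus strand: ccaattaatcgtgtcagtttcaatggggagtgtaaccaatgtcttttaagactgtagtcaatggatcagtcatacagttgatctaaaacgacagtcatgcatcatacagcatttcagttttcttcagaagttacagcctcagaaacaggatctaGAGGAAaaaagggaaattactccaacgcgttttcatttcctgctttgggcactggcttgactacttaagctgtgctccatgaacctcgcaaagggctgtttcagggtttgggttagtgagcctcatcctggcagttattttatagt
GAGGAA, searched on both strands, was found for 7 of the 8 members with an entry in the RefSeq promoter table (GRCm38.p6, where Clec4n and Clec10a had none). Counted by window, it was found in 8 of the 10 windows of these members and in 28.3% of all 32851 windows of that length. Such a match describes letters and not a bound site.

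The FcRγ-coupled receptors did not move one way. Clec4n (Dectin-2, a receptor for mannans) fell from 164, 167 and 169 CPM in WT TAMs to 130.2, 116 and 126 CPM in AMPK-KO TAMs. The groups were well apart (means 166 ± 2.56 and 124 ± 7.15, SD, n = 3, log2 fold change −0.42, SE 0.05, edgeR adjusted p = 3.47e-04). Clec4d (MCL, which pairs with Mincle) fell from 159, 199 and 179.7 CPM to 114, 115.5 and 128 CPM. The WT samples were the more spread, and even the lowest of them exceeded each AMPK-KO sample (means 179 ± 19.9 and 119 ± 7.70, log2 fold change −0.59, SE 0.08, edgeR adjusted p = 5.26e-04). Clec4e (Mincle, a receptor for mycobacterial glycolipid and for the dead-cell protein SAP130) rose instead, from 85.6, 88.0 and 89.0 CPM to 108, 101 and 102 CPM, the smallest change among the members (log2 fold change 0.24, SE 0.05, edgeR adjusted p = 0.00708). Clec4b1 (DCAR) was at 14.7, 20.9 and 17.4 CPM in WT and 27.3, 27.8 and 30.7 CPM in AMPK-KO TAMs, with no overlap (log2 fold change 0.70, SE 0.12, edgeR adjusted p = 0.00241).

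Clec4d and Clec4e lie 6.5 kb apart and are transcribed toward each other, and their promoter windows are shown because these neighbours took opposite directions in AMPK-KO TAMs. Capitals mark GAGGAA on either strand and, in Clec4e, the C/EBP letters TTGCNNAA.
Clec4d promoter, chr6:123261857-123262156, plus strand: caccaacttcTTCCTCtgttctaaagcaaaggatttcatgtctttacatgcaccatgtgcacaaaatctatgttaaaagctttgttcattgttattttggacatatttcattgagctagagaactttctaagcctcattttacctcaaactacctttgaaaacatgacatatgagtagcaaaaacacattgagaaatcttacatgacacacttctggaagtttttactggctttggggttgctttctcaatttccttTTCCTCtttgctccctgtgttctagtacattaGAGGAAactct
Clec4e promoter, chr6:123289822-123290121, minus strand: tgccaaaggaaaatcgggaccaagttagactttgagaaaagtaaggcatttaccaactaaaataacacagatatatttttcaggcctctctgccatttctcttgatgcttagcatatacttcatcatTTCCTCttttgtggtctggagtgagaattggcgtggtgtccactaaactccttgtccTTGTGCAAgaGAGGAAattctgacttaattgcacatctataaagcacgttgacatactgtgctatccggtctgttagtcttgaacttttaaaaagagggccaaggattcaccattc
GAGGAA occurred at 3 places in the Clec4d window and at 2 in that of Clec4e. TTGCNNAA was found for Clec4e and Clec12a, 2 of the 8 members (2 of their 10 windows), and in 10.8% of all windows. Among the other letters searched, TTCNNNGAA (the STAT element GAS) was found for Clec4a2 alone (8.30% of all windows), and an NF-κB consensus (1.63%) and CACGTG (E-box, 7.15%) were found for none of the 8.

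The ITIM-bearing receptors both rose in AMPK-KO TAMs. Clec4a2 (DCIR, which dampens dendritic cell and macrophage activation) was at 165, 164 and 170.4 CPM in WT and 214, 211 and 215 CPM in AMPK-KO TAMs. Each group spanned a few CPM only, and the shift between them was modest (means 166 ± 3.45 and 213 ± 2.05, SD, n = 3, log2 fold change 0.36, SE 0.04, edgeR adjusted p = 2.8e-04). Clec12a (MICL, an inhibitory receptor for uric acid crystals) was at 191, 221 and 204 CPM and at 289.9, 282 and 309 CPM, so that every AMPK-KO sample was the higher (log2 fold change 0.52, SE 0.06, edgeR adjusted p = 1.85e-04). Clec4a3, a paralog of Clec4a2, was at 168, 175 and 175 CPM in WT and at 259.9, 232.5 and 244 CPM in AMPK-KO TAMs (log2 fold change 0.51, SE 0.05, edgeR adjusted p = 8.24e-05). The 3 changes were of like direction, and the read split between the paralogs stays uncertain.

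The paired galactose-type lectins, both endocytic and both used as markers of alternatively activated macrophages, went opposite ways. Mgl2 was at 57.4, 66.3 and 61.2 CPM in WT TAMs and at 115, 120.5 and 116 CPM in AMPK-KO TAMs. Its 6 values formed a pair of tight groups (means 61.6 ± 4.45 and 117 ± 3.05, SD, n = 3, log2 fold change 0.93, SE 0.06, edgeR adjusted p = 4.14e-06). Clec10a was at 168, 196 and 185 CPM in WT and at 131, 140.3 and 143.5 CPM in AMPK-KO TAMs, lower in each of the 3 samples (means 183 ± 14.3 and 138 ± 6.60, log2 fold change −0.40, SE 0.07, edgeR adjusted p = 0.0015). The Mgl2 window is printed for that contrast, with GAGGAA in capitals.
Mgl2 promoter, chr11:70130107-70130406, plus strand: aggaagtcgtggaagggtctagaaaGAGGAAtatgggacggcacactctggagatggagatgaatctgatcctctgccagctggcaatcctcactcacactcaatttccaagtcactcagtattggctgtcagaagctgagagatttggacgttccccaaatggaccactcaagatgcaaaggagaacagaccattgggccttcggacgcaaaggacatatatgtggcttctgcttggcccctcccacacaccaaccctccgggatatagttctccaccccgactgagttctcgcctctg

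**Figure D2:**
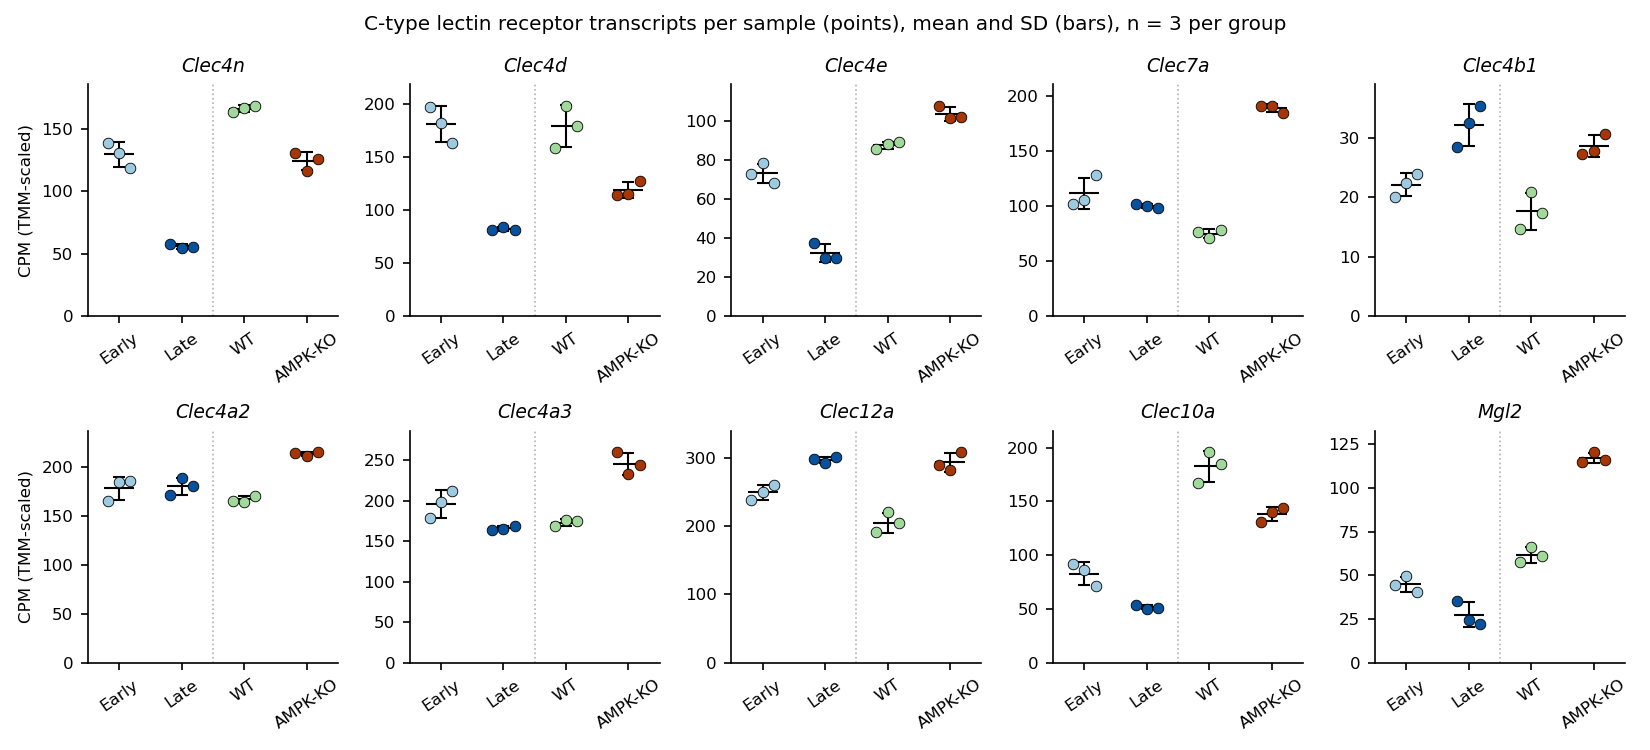
Level of each receptor transcript (TMM-scaled CPM, vertical axis from 0) in every sample of the early-stage, late-stage, WT and AMPK-KO groups; points are samples, bars the mean and SD of 3, and a dotted line parts the separately scaled tables. Clec7a and Mgl2 stood apart between WT and AMPK-KO TAMs, and Clec4n, Clec4d and Clec4e between early-stage and late-stage TAMs.

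Count ratios within a sample, which do not depend on scaling, set neighbours against each other. For close paralogs, such as Mgl2 and Clec10a, they also rest on the read split, which is uncertain. Mgl2 counts were 0.342, 0.338 and 0.331 of Clec10a counts in WT TAMs and 0.878, 0.859 and 0.807 in AMPK-KO TAMs (difference of the mean log2 ratio 1.33). Clec4e counts were 0.539, 0.443 and 0.495 of Clec4d counts in WT and 0.947, 0.878 and 0.796 in AMPK-KO TAMs (difference 0.83). Relative to Clec4n they were 0.524, 0.528 and 0.528 in WT and 0.828, 0.872 and 0.808 in AMPK-KO TAMs (difference 0.67), and the Clec7a to Clec12a ratio rose by 0.82 on the same scale. None of the groups overlapped in these 4 ratios. The two-sided exact permutation p was 0.1 for each, the smallest that 3 against 3 samples can give, so p = 0.05 was out of reach. The Clec4d to Clec4n ratio differed by −0.16 (exact permutation p = 0.3). These 5 ratios, with Clec4a2 to Clec4b1 (−0.35) and Clec4a2 to Clec4a3 (−0.15; exact permutation p = 0.1 for both), were all 7 examined, and with p-values of 0.1 at the lowest none could pass an adjustment over them.

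Markers of macrophages and of other cells moved alongside, where 11.3% of all genes tested were higher and 9.78% lower. The macrophage list had 1 of 10 higher and 2 lower in AMPK-KO TAMs, with a sum of 12500 to 12900 CPM against 13500 to 14700 CPM in WT TAMs, and Cd68 fell (log2 fold change −0.55, SE 0.04, edgeR adjusted p = 1.18e-05). In AMPK-KO TAMs 8 of 9 markers of type 2 and shared dendritic cells were higher, with a sum of 436 to 477 CPM against 249 to 273 CPM in WT TAMs, and Itgax went from 119 to 254 CPM (log2 fold change 1.10, SE 0.06, edgeR adjusted p = 7.32e-07). The type 1 dendritic cell list, which includes the lectin Clec9a, had 6 of 8 higher (386 to 435 against 312 to 355 CPM). Of the monocyte list 4 of 8 were higher (1500 to 1650 against 1150 to 1300 CPM), and of the plasmacytoid list 1 of 6 was higher and 2 lower (446 to 484 against 568 to 657 CPM). The neutrophil list had 3 of the 6 tested higher (174 to 179 against 116 to 119 CPM, nearly all of it Csf3r and Mmp9), while its defining genes Ly6g and Camp were too low to test. Of the T or NK cell list 9 of 10 were higher (209 to 219 against 101 to 119 CPM). In the B cell list Ighm and Cd79b were higher and 4 of 6 lower, with a sum of 184 to 189 against 139 to 146 CPM. All 4 that were lower passed the fold threshold. The log2 fold changes of that list ran from −6.47 to 0.56 (median −4.06), so its sum does not show the fall of these 4. Basophil or mast cell markers summed to at most 3.21 CPM, with 1 of the 2 tested higher. All 6 melanoma genes were lower (615 to 645 against 919 to 926 CPM). The part of these cells in the receptor changes was not tested.

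To ask how the receptors differed between the stages, late-stage TAMs were compared with early-stage TAMs. Of the 10 members 5 were lower, 2 higher and 3 did not pass the test, where 9.18% of the 17630 genes tested passed it, 4.31% higher and 4.88% lower. The median log2 fold change was −0.46 over the members (from −1.21 to 0.54) and 0.0027 over all genes. Clec4n, Clec4d and Clec4e also passed the fold threshold downward, which 1.26% of genes did (1.87% in either direction and 0.601% higher). The groups did not overlap for 9 members, against 31.2% of genes tested (15.6% in each direction). The count of 7 called members fell to 4 without Early 2, Late 2 or Late 3 and was 8 without Early 1, and Clec4n, Clec4d, Clec4e and Clec10a passed the test in each of these fits.

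The 3 adjacent FcRγ-coupled genes fell together. Clec4n was at 139, 131 and 119 CPM in early-stage and at 57.9, 54.3 and 55.5 CPM in late-stage TAMs. Each late-stage sample was under 0.5 times the lowest early-stage one (means 129 ± 10.1 and 55.9 ± 1.82, SD, n = 3, log2 fold change −1.21, SE 0.08, edgeR adjusted p = 2.85e-05). Clec4d was at 197, 182 and 163.5 CPM and at 81.3, 84.4 and 80.8 CPM (means 181 ± 17.0 and 82.2 ± 1.91, log2 fold change −1.14, SE 0.08, edgeR adjusted p = 4.79e-05). As for Clec4n, the late-stage samples lay within a few CPM of each other and far under the early-stage range. Clec4e was at 72.8, 78.2 and 68.2 CPM and at 37.5, 29.7 and 29.6 CPM, with Late 1 the highest of the late samples (means 73.1 ± 5.01 and 32.3 ± 4.51, log2 fold change −1.18, SE 0.11, edgeR adjusted p = 1.99e-04). Their ratios to each other overlapped between the stages. Clec4e counts were 0.369 to 0.430 of Clec4d counts in early-stage and 0.353 to 0.461 in late-stage TAMs (difference of the mean log2 ratio −0.05, exact permutation p = 0.8), and the Clec4e to Clec4n and Clec4d to Clec4n ratios differed by 0.02 (exact permutation p = 0.8) and 0.07 (p = 0.2 by the same exact test).

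The galactose-type lectins also fell, here in the same direction. Clec10a was at 91.4, 85.9 and 70.9 CPM in early-stage and at 53.8, 50.2 and 51.1 CPM in late-stage TAMs, with no overlap (log2 fold change −0.68, SE 0.10, edgeR adjusted p = 0.00274). Mgl2 was at 44.6, 49.3 and 40.5 CPM and at 35.5, 24.5 and 22.1 CPM, Late 1 lying nearer to the early-stage samples (log2 fold change −0.71, SE 0.17, edgeR adjusted p = 0.0269). The Mgl2 call was lost in edgeR without Early 2 (adjusted p = 0.126), Late 2 (0.118) or Late 3 (0.106), and with no filter on low counts (0.0825). The Mgl2 to Clec10a ratio ran from 0.487 to 0.574 in early-stage and from 0.432 to 0.660 in late-stage samples (difference −0.07, exact permutation p = 0.9).

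**Figure D3:**
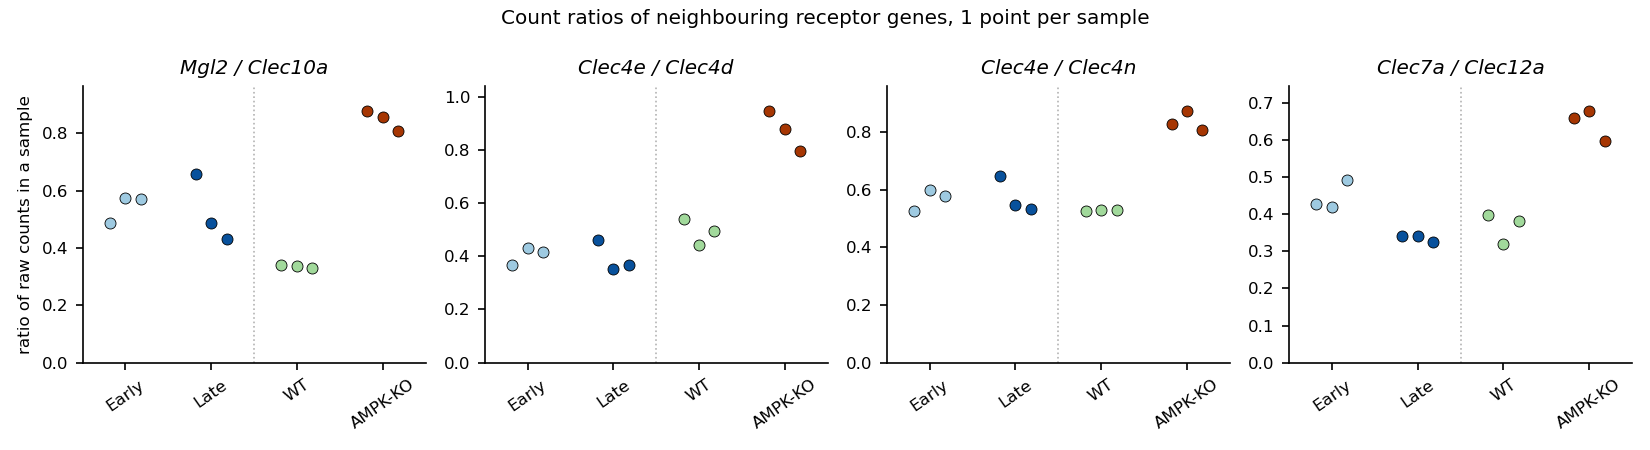
Ratios of raw counts of neighbouring receptor genes within each sample (vertical axis from 0, 1 point per sample) for Mgl2 to Clec10a, Clec4e to Clec4d, Clec4e to Clec4n and Clec7a to Clec12a. The first 3 ratios overlapped between early-stage and late-stage samples, and all 4 were higher in each AMPK-KO sample than in any WT sample.

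Clec4b1 and Clec12a were higher in late-stage TAMs. Clec4b1 was at 20.01, 22.5 and 23.9 CPM in early-stage and at 28.5, 32.5 and 35.5 CPM in late-stage TAMs, with no overlap (log2 fold change 0.54, SE 0.11, edgeR adjusted p = 0.0178), and its call was lost without Early 2 (0.0766), Late 2 (0.0817) or Late 3 (0.098). Clec12a was at 239, 249.6 and 259.8 CPM and at 298, 293 and 301 CPM, so the groups were apart by a small margin (log2 fold change 0.25, SE 0.07, edgeR adjusted p = 0.0411). That call was lost without Early 2 (0.144), Late 1 (0.13), Late 2 (0.152) or Late 3 (0.171), as well as with upper-quartile scaling (0.054), with no filter on low counts (0.0674) and with the replicate number as a block (0.0793).

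Clec7a, Clec4a2 and Clec4a3 did not pass the test between stages. Clec7a was at 102, 105 and 128 CPM in early-stage and at 102, 100.4 and 98.2 CPM in late-stage TAMs, the late-stage values lying just under the lowest early-stage one (log2 fold change −0.16, SE 0.09, edgeR adjusted p = 0.33). Its ratio to Clec12a was 0.421 to 0.494 in early-stage and 0.326 to 0.343 in late-stage samples, which did not overlap (difference −0.41, exact permutation p = 0.1). Clec4a2 was at 164.5, 184 and 185 CPM and at 171, 188.5 and 180.2 CPM, fully overlapping (log2 fold change 0.02, SE 0.08, edgeR adjusted p = 0.928), with a negative sign without Early 1 (−0.04) or Late 2 (−0.02). Clec4a3 was at 178, 198 and 212 CPM and at 164, 165 and 169 CPM, lower in every late-stage sample without passing the test (log2 fold change −0.24, SE 0.08, edgeR adjusted p = 0.0909), and it passed without Early 1 (0.0139) and with DESeq2 (0.0467). The counts ratio of Clec4a2 to Clec4b1 went from 7.76 to 8.22 in early-stage to 5.08 to 6 in late-stage samples, and that of Clec4a2 to Clec4a3 from 0.873 to 0.931 to 1.04 to 1.14, both without overlap (exact permutation p = 0.1 each).

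**Figure D4:**
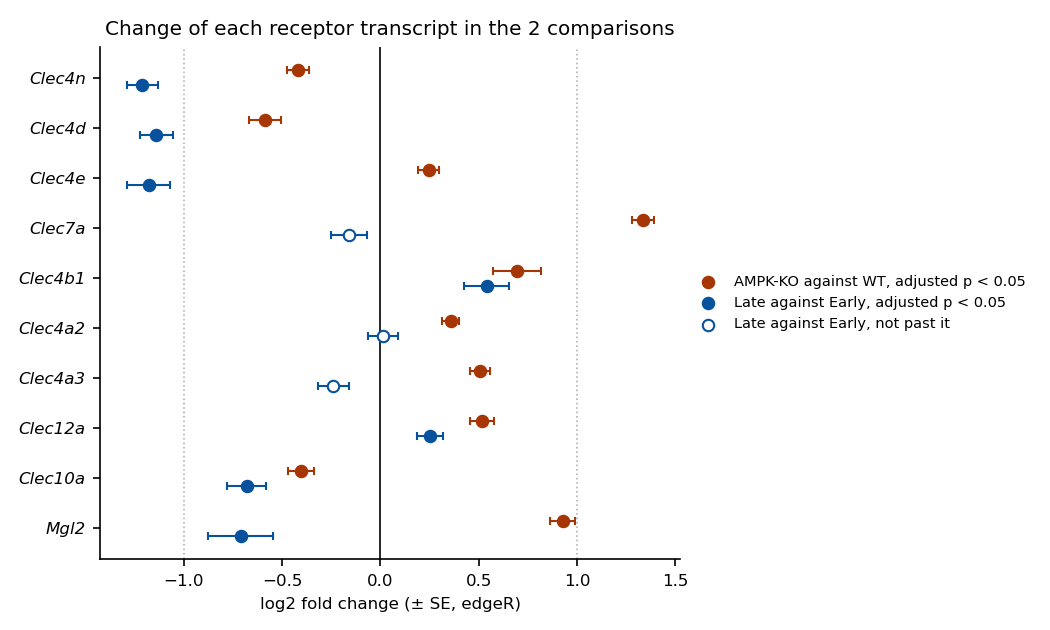
Log2 fold change of each receptor transcript (horizontal axis, with SE from edgeR) for AMPK-KO against WT and for late-stage against early-stage TAMs; filled points passed an adjusted p under 0.05 and dotted lines mark the fold threshold. Clec7a was at 1.34 and −0.16, and Clec4n, Clec4d and Clec4e were between −1.21 and −1.14 by stage, with Clec4e at 0.24 and the other two below 0 by genotype.

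Set side by side, Clec4n, Clec4d and Clec10a were lower in both AMPK-KO and late-stage TAMs, Clec4b1 and Clec12a were higher in both, and Clec4e and Mgl2 were higher in AMPK-KO and lower in late-stage TAMs. The comparisons share no samples, and the difference between them was not tested. WT TAMs, also placed at day 15, did not have the late-stage levels. Clec4n was at 166 CPM in WT against 55.9 in late-stage TAMs, Clec4d at 179 against 82.2, Clec4e at 87.5 against 32.3 and Clec10a at 183 against 51.7. Clec4b1 (17.7 against 32.2) and Clec12a (205 against 297) were lower in WT TAMs. By label these day 15 groups also differed in the floxed allele. Their Lyz2 counts were unlike, as were Y-linked transcripts (128 to 139 CPM in WT and 0 to 0.05 CPM in late-stage samples). Scaling was separate, and what sets the groups apart was not tested.

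Marker lists moved with the stage comparison too, where 4.31% of all genes tested were higher and 4.88% lower. Of the macrophage list 1 of 10 was higher and 2 lower in late-stage TAMs (12300 to 12400 against 9910 to 12100 CPM). Of the 8 monocyte markers, 7 were lower in late-stage TAMs, with a median log2 fold change of −1.52 and a sum of 627 to 778 CPM against 1310 to 1530 CPM in early-stage TAMs. Ly6c2, which encodes a Ly6C antigen, went from 30.1 to 8.39 CPM (log2 fold change −1.84, SE 0.13, edgeR adjusted p = 4.79e-05), and Ccr2 from 288 to 103 CPM. The type 2 and shared dendritic cell list was mixed, with 2 of 9 higher and 4 lower (304 to 309 against 252 to 282 CPM). Its sum rose with Itgax (129 to 190 CPM) and Ccr7, while Cd209a, Dpp4, Kmo and Tnip3 fell. The type 1 list had 3 of 8 higher (554 to 564 against 325 to 386 CPM, Cadm1 and Wdfy4 making up most of it). Of the plasmacytoid list 1 of 6 was higher (494 to 506 against 348 to 580 CPM, most of it Bst2). Neutrophil markers had 3 of the 5 tested lower (76.2 to 87.1 against 93.5 to 113 CPM), T or NK cell markers 2 of 10 higher and 3 lower (188 to 232 against 196 to 208 CPM), and B cell markers 4 of 6 higher (247 to 310 against 146 to 152 CPM). Neither of the 2 basophil or mast cell markers tested passed. Melanoma genes were lower for 4 of 6 (701 to 1130 against 1550 to 1670 CPM). Their part in the receptor changes was not tested.

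Of 31 other C-type lectin receptors of myeloid cells, 26 could be tested in each table. The shares over all genes were 11.3% higher and 9.78% lower by genotype, and 4.31% higher and 4.88% lower by stage. The AMPK-KO samples had 8 of them higher and 5 lower (median log2 fold change 0.17), and Mrc1, Cd209a and Clec9a also stand in a marker list, as does the factor Batf3. Cd209b, the lectin SIGNR1, went from 13.3 to 3.44 CPM (log2 fold change −1.96, SE 0.16, edgeR adjusted p = 1.44e-05), Cd209a from 17.3 to 29.2 CPM (0.76, SE 0.07, adjusted p = 4.48e-05) and Clec4a1, a further DCIR-family gene, from 325 to 460.5 CPM (0.50, SE 0.05, adjusted p = 8.11e-05). Mrc1, the mannose receptor, fell from 1767 to 1237 CPM (−0.51, SE 0.06, edgeR adjusted p = 9.99e-05). Within the Clec4 stretch Clec4a4 did not pass the test (0.88, edgeR adjusted p = 0.0916), and Clec9a, between Clec12a and Clec7a, rose (1.38, adjusted p = 1.28e-04 in the same fit). In late-stage TAMs none was higher and 7 were lower (median −0.24), among them Colec12, a scavenger collectin (18.2 to 6.78 CPM, −1.43, SE 0.12, edgeR adjusted p = 1.19e-04), Cd209a (15.0 to 6.80 CPM, −1.14, SE 0.15, adjusted p = 0.00151) and Mrc1 (1198 to 778 CPM, −0.62, SE 0.09, adjusted p = 0.00187). That count was 4 without Early 2, Late 2 or Late 3.

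The signaling genes downstream were considered next. Fcer1g, the shared adaptor chain, was at 796.5 and 838 CPM in WT and AMPK-KO TAMs (log2 fold change 0.07, edgeR adjusted p = 0.5; slightly below 0 without WT 1) and at 785 and 716 CPM in early-stage and late-stage TAMs (−0.13, adjusted p = 0.324). Syk passed by a narrow margin in AMPK-KO TAMs (370.2 to 419 CPM, 0.18, SE 0.04, edgeR adjusted p = 0.0167) and lost the call without WT 2 (0.0522), WT 3 (0.0762), AMPK-KO 1 (0.0715) or AMPK-KO 2 (0.0612). Card9 did not pass (0.07, edgeR adjusted p = 0.53). Of 29 adaptors and kinases 13 rose and none fell in AMPK-KO TAMs (median 0.15; 14 to 15 called with 1 lower under upper-quartile scaling, DESeq2 or a stricter count filter), led by the paracaspase Malt1 (50.4 to 93.5 CPM, 0.89, SE 0.09, edgeR adjusted p = 5.3e-05) and the Src-family kinase Fgr (0.58, adjusted p = 1.79e-05). Negative regulators had 6 of 12 higher and none lower (median 0.24). Among them were the phosphatases Ptprc (574 to 918 CPM, 0.68, SE 0.05, edgeR adjusted p = 1.13e-05), Ptpn22 (0.69, adjusted p = 7.82e-05) and Ptpn6, which encodes SHP-1 (462 to 609 CPM, 0.40, adjusted p = 1.14e-04). The background of 11.3% higher and 9.78% lower applies to these counts too.

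Between stages 5 of the 29 adaptors and kinases passed, where 9.18% of all genes did. Of them 4 were higher and 1 lower (median 0.10), with the exchange factor Vav2 among the higher ones (0.56, edgeR adjusted p = 0.00186) and Fgr lower (−0.59, adjusted p = 0.00423), and the count was 11 without Early 1. Syk (0.04, edgeR adjusted p = 0.755) and Card9 (0.29, adjusted p = 0.453; −0.02 without Late 1) did not pass. Of the 12 negative regulators only Inpp5d, the lipid phosphatase SHIP-1, passed (0.27, edgeR adjusted p = 0.0305), and it did not without Early 2, Late 1, Late 2 or Late 3 (0.112 to 0.144), while without Early 1 the list had 3 calls.

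**Figure D5:**
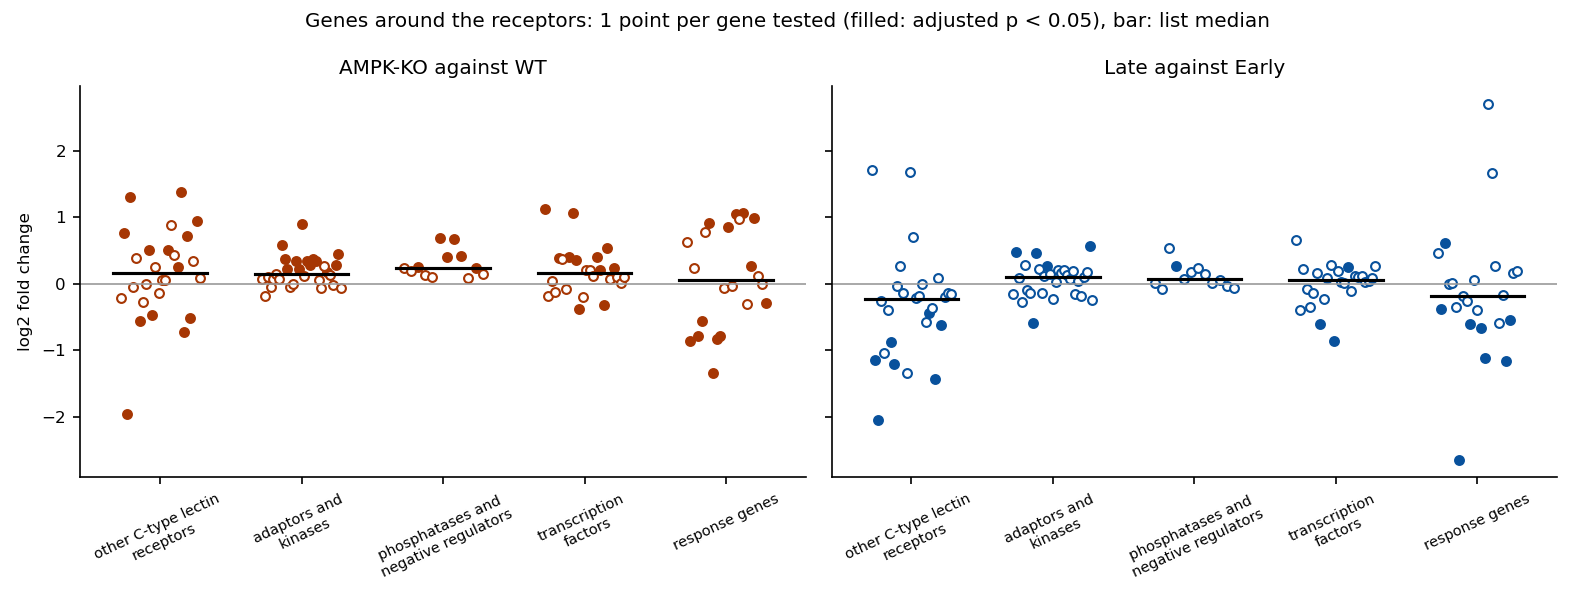
Log2 fold change (vertical axis) of every gene tested in the lists of other receptors, adaptors and kinases, negative regulators, transcription factors and response genes, for AMPK-KO against WT (left) and late-stage against early-stage TAMs (right); filled points passed an adjusted p under 0.05 and the black bar is the list median. In the left panel 13 of 29 adaptors and kinases were higher, and in the right panel 7 of 26 other receptors were lower.

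Transcription factors and target genes of the pathway changed in mixed directions. Over all genes tested, 11.3% were higher and 9.78% lower by genotype, and 4.31% higher and 4.88% lower by stage. In AMPK-KO TAMs 9 of 24 factors were higher and 2 lower (median 0.16), with Irf1, an interferon-induced factor, going from 144 to 299 CPM (1.06, SE 0.05, edgeR adjusted p = 3.3e-07), Batf3 higher (1.12, adjusted p = 2.72e-05) and Nfkb1 higher (0.40, adjusted p = 8.22e-05). In late-stage TAMs Mitf (124 to 68.8 CPM, −0.86, SE 0.10, edgeR adjusted p = 7.43e-04) and Hif1a (−0.61, adjusted p = 0.00773) were lower, and Nfkb1 passed narrowly (0.26, adjusted p = 0.0473) but not without Early 2, Early 3 or any late-stage sample (0.0569 to 0.193). The factor list had 3 calls by stage, where 9.18% of all genes passed, and 6 without Early 1. Mitf is also a melanocyte gene. Of 22 response genes tested 6 rose and 7 fell in AMPK-KO TAMs (median 0.05): the cytokine Il1b (288 to 595 CPM, 1.05, SE 0.04, edgeR adjusted p = 2.56e-07) and Nos2 (149.6 to 296 CPM, 0.99, SE 0.06, adjusted p = 3.27e-06) rose, and the neutrophil chemokine Cxcl1 fell (44.5 to 17.5 CPM, −1.34, SE 0.09, adjusted p = 5.33e-06). Of 23 tested between stages 1 was higher and 7 lower (median −0.19), among them Nos2 (147 to 65.8 CPM, −1.16, SE 0.08, edgeR adjusted p = 4.2e-05), Il1b (224 to 103 CPM, −1.12, SE 0.11, adjusted p = 3.37e-04) and Ptgs2 (−0.55, adjusted p = 0.0029). That count was 4 without Early 2, Late 2 or Late 3 and 5 without Late 1.

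The genes whose pattern was nearest to each member were sought over the 12 samples, each table centred on its own mean, among 16802 genes tested in both tables. Among the genes most like Clec7a were the interferon-induced genes Gbp2 (Pearson r = 0.996) and Serpina3f (0.993). Clec4e was most like Fcgr2b (0.996), the inhibitory Fc receptor, and then Bst1 (0.986). Clec4n was most like Ccl6 (0.990) and Il4ra (0.988). Clec4d and Clec10a shared Ctsl (0.988 and 0.979) and Folr2 (0.986 and 0.981), a marker of resident macrophages, and correlated with each other at 0.980. Mgl2 was nearest to Ear2 (0.971), Clec12a to Gimap3 (0.988), Clec4a3 to Gpr171 (0.991), Clec4a2 to Atp6v0a2 (0.974) and Clec4b1 to Cd6 (0.952). These correlations rest on the same 2 group differences and the same libraries, and are given as descriptions.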

How the data were processed

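RNA-seq was measured in 12 TAM samples. The authors sequenced on an Illumina NovaSeq instrument, mapped reads with HISAT2, counted them with featureCounts and deposited raw gene counts in 2 tables. Versions, strand setting and multimapping are not given in the sources used here. The methods write GRCh38, and the submitters' processing notes name GRCm38 (mm10). All 10 member identifiers match GENCODE M21 of GRCm38 with their version.

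Each table was fitted alone with edgeR 4.0.16 (R 4.3.3): filterByExpr, TMM, the quasi-likelihood test and Benjamini-Hochberg adjustment over all genes tested. The study's own test was DESeq2. Level per length is CPM per kb of merged exons. Ratios were compared with two-sided exact permutation tests. Genes named were the members, the 3 lowest adjusted p of each list, Fcer1g, Syk, Card9, Mrc1, Prkaa1 and Lyz2. Some genes that this rule names are not reported here. Others are markers and neighbours chosen after their values were seen. The members and lists were chosen with earlier results of these data known. Lists: other receptors, adaptors and kinases, negative regulators, transcription factors, response genes, and markers of 10 cell types and of the Y chromosome. No 2 libraries of the same group agreed within sampling noise. Alternatives were DESeq2 1.42.0, RLE or upper-quartile scaling, 2 other count filters, the replicate number as a block, and leaving out each library. On simulated counts with the genotype settings, edgeR recovered 53 of 100 genes with an absolute log2 fold change of 0.5 and 85 of 100 with 1. With the stage settings it recovered 40 and 81 of 100. False calls were 10 of 148 by genotype and 15 of 136 by stage. For DESeq2 they were 44 of 202 and 51 of 185. Promoters are from RefSeq (GRCm38.p6). No amino acid sequences were used here.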

Additional observations from a re-analysis of the deposited data

How the results depend on the processing

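In the AMPK-KO comparison all 10 members kept their direction and call under each alternative (120 of 120 values), and the list counts stayed within 1.5 times the reported ones. Of the other named genes, Fcer1g ranged from −0.0017 (without WT 1) to 0.128 and Lyz2 from −0.083 (without AMPK-KO 3) to 0.28, also below 0 without WT 1 (−0.016) or WT 3 (−0.03). In the stage comparison 102 member values were unchanged in direction and call, 14 lost and 2 gained the call, and 2 changed sign (Clec4a2, from −0.036 without Early 1 to 0.052, and −0.02 without Late 2). Card9 ranged from −0.019 (without Late 1) to 0.435.

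Counts of calls by stage ranged, with a library left out, from 4 to 8 for the members (5 with no count filter), from 4 to 7 for other receptors, from 4 to 11 for adaptors and kinases, from 0 to 3 for negative regulators, from 2 to 6 for transcription factors and from 4 to 10 for response genes. DESeq2 called 3 negative regulators and 5 transcription factors by stage. With no filter beyond 1 count, 0 negative regulators, 2 transcription factors and 5 response genes passed. Leaving out a library leaves fewer samples, and the counts of members and of adaptors and kinases reached 8 and 11 without Early 1. The cause was not tested.

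Deviations of same-numbered samples from their group means correlated at −0.0039 to 0.042 in the first table and at 0.013 to 0.026 in the second. For samples of unlike number the correlations ran from −0.048 to 0.047 and from −0.061 to 0.041. Deviations from a group mean cancel within the group, which holds such correlations small on average. This check therefore cannot decide whether the numbers pair the samples. With the replicate number as a block, 10 members were called by genotype and 6 by stage. Under upper-quartile scaling the median over all genes was −0.0175 by genotype and −0.0116 by stage on the log2 scale, against −0.0037 and 0.0027. Over all genes the 1619 calls by stage became 2661 with DESeq2 and 936 with no count filter, and 653 to 2835 with a library left out. The 3693 calls by genotype became 2414 to 4039 with a library left out.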
